A study of Mus musculus with 8 samples.

Results

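The genes described here encode tissue inhibitors of metalloproteinases (TIMPs) and matrix metalloproteinases (MMPs) in a mouse medullary thymic epithelial cell (mTEC) line. Members were the 10 gene symbols Timp1, Timp2, Timp3, Timp4, Mmp2, Mmp9, Mmp10, Mmp13, Mmp14 and Mmp15, of the 24052 symbols listed in each RNA-Seq count table. They were chosen with the results of these libraries known, above all the difference of Timp3 between the cell types. For that reason the values of the members in E6 against WT are given as a description, with standard errors and no p-value.

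The 8 RNA-Seq libraries, 2 for each of 4 conditions, came from mTEC 3.10 cells (C57BL/6) with wild-type Aire (WT) and from clone E6, which carries Crispr-Cas9 mutations of Aire. Either cell type was sequenced without thymocytes (before adhesion) and after co-culture with them (after adhesion). The libraries after adhesion came from co-cultures of 12 h with 50 thymocytes per mTEC. The mTECs had been cultured for 24 h in replicate 2 of WT after adhesion and in replicate 1 of both E6 conditions, and for 12 h in the other libraries. The labels give the genotype of E6 as Aire +/-, where the methods of the study describe mutations of both alleles. The protocol text of E6 before adhesion also mentions co-culture, against the titles and source names, which were followed here. E6 is a single clone, so an effect of the mutations and a property of this clone cannot be told apart. Nothing in the labels says that replicates came from separate experiments, and p-values measure only the spread between these libraries, which may be technical.

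The libraries held 13506610 to 20145154 counts on genes, and 3 counts, taken as the smallest level that this depth could show, corresponded to 0.149 to 0.222 CPM (counts scaled by the library total on genes). Such floors and all counting intervals below cover counting error only. Replicate 1 of WT after adhesion stood apart, since 66.7% of its reads fell on genes and the other 7 libraries had 75.7% to 78.8%, and results that rest on it are given with and without it. The 2 libraries of WT after adhesion also differed most from each other. Their counts gave a chi-square per degree of freedom of 137, against 3.41 in WT before, 4.56 in E6 before and 8.17 in E6 after adhesion. All contrasts shared 1 estimate of the spread, which included this pair. Of the epithelial markers, Epcam, Krt8, Krt18, Krt14, Cdh1 and Pax1 had at least 2145 counts in every library, while Psmb11 and Enpep had 0 counts in all 8 and Tnfrsf11a, Cd40, Cd80 and Fezf2 had at most 6. Aire, the edited gene, had 0 counts in both libraries of each condition before adhesion and 0 and 3 counts in each condition after adhesion, so its level does not check the labels.

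MMPs are zinc-dependent endopeptidases that cleave extracellular matrix proteins and cell surface proteins. TIMPs bind the active site of MMPs and block it, and TIMP-3, which is itself held in the matrix, also inhibits several ADAM and ADAMTS proteinases. In the thymus, epithelial cells lay down and remodel the matrix along which thymocytes adhere and migrate.

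The promoter sequences of 8 of the 10 members were found by symbol among the RefSeq promoters of GRCm38.p6, and Mmp2 and Mmp9 had no entry. The Timp3 promoter is shown because this gene carried the largest difference between the cell types, beside that of Timp4, which had no counts in any library. Both are the 200 bases before the RefSeq start of the gene, written 5′ to 3′ on the strand of the gene, with CG dinucleotides in capitals.
Timp3 (chr10:86300212-86300411, plus strand): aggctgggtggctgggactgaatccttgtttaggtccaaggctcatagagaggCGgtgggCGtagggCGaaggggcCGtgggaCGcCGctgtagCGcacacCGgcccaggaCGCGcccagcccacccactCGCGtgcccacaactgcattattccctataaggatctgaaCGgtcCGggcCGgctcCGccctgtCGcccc
Timp4 (chr6:115252206-115252405, minus strand): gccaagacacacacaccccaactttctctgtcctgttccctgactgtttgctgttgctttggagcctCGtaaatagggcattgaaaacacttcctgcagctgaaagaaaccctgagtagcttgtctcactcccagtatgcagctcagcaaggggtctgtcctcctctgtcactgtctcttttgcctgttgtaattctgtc
The Timp3 promoter held 17 CG dinucleotides in these 200 bases and the Timp4 promoter 1. Over the full 250 upstream bases, Timp2 held 21, Timp3 18, Mmp15 14, Mmp14 10, Timp1 6, Timp4 2, and Mmp10 and Mmp13 1 each, against a median of 6 over 32851 promoters. The 5 members with over 100 CPM in WT were thus those with 6 or more CG dinucleotides among the 8 matched.

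The promoters of Mmp10 and Mmp13 are shown because both genes had few or no counts before adhesion and more counts after it. These are the 120 bases before the RefSeq start, with the AP-1 motif in capitals.
Mmp10 (chr9:7502222-7502341, plus strand): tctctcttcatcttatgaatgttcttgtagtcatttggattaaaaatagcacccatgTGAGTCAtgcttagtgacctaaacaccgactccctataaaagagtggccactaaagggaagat
Mmp13 (chr9:7272394-7272513, plus strand): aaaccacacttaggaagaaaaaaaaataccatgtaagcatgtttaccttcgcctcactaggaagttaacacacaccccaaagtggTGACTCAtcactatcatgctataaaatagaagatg
The motif searched was TGANTCA, which reads the same on both strands apart from its middle base and was searched on both. It occurred 63 to 57 bases upstream of the start in Mmp10 and 35 to 29 bases upstream in Mmp13, and it did not occur in the 250 bases of the other 6 matched members. Of all 32851 promoters, 6.75% held it. A match of letters is a description and does not show that a factor binds there.

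Genes were tested with edgeR's quasi-likelihood test over the 11672 genes with enough counts, which included 8 of the 10 members. Timp4 and Mmp10 had too few counts to be tested. A gene was called differentially expressed (DE) when its Benjamini-Hochberg FDR was under 0.05 and its fold change (FC) at least 1.5. Between E6 and WT, averaged over before and after adhesion, 11.3% of all tested genes were DE, 5.22% higher and 6.13% lower in E6. Of the 8 tested members, 0 were higher and 1, Timp3, was lower. Before adhesion the only DE member was Timp3, and after adhesion Timp3 was lower and Timp1 higher, where 5.01% and 8.91% of all tested genes were DE. The members had been chosen on this comparison, and nothing is read from these counts. In 4 of the 8 tested members, Timp1, Timp2, Timp3 and Mmp2, all 4 libraries of one cell type lay above all 4 of the other, against 31.3% of all tested genes.

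Among the inhibitors, Timp3 was lower in E6 than in WT by a factor of 36.9 in mean CPM. It had 337 and 350 CPM in WT before adhesion, 410 and 312 CPM in WT after adhesion, 9.04 and 9.15 CPM in E6 before adhesion, and 10.1 and 9.88 CPM in E6 after adhesion. Every WT library lay above every E6 library, and the lowest WT value was 312 CPM while the highest E6 value was 10.1 CPM. The WT mean was 352 ± 41.3 CPM and the E6 mean 9.54 ± 0.529 CPM (SD, n = 4 each). The log2 FC of E6 against WT was -5.23 (SE 0.15) averaged, -5.22 (SE 0.21) before and -5.25 (SE 0.21) after adhesion, and only 19 of the 11672 tested genes had a lower averaged log2 FC. Without replicate 1 of WT after adhesion the averaged log2 FC was -5.08. The groups were separated in the same way among the libraries with 12 h of culture, which had 337, 350 and 410 CPM in WT and 9.15 and 9.88 CPM in E6. The remaining level in E6 was well above the floor of 3 counts. In bulk RNA, fewer cells that express a gene and less RNA of it per cell cannot be told apart.

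**Figure D1:**
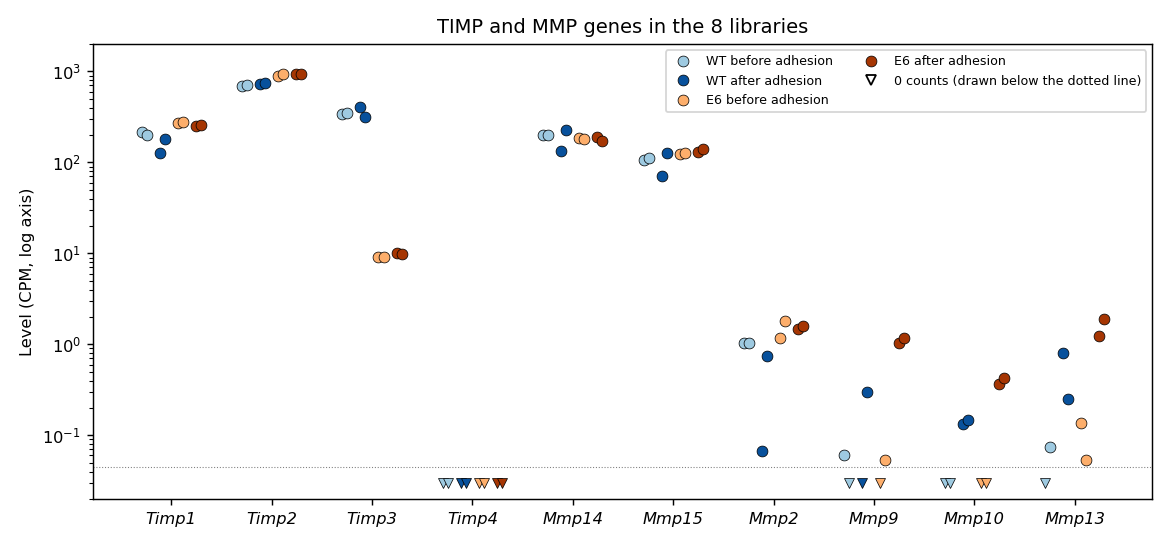
Level of each member in CPM (log axis) in the 8 libraries, with 1 point per library coloured by cell type and adhesion. Triangles below the dotted line are libraries with 0 counts. Timp3 sits between 312 and 410 CPM in the 4 WT libraries and between 9.04 and 10.1 CPM in the 4 E6 libraries, while Mmp9, Mmp10 and Mmp13 sit highest in the 2 E6 libraries after adhesion.

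Timp3 lies on chromosome 10 of GRCm38 from 86300372 to 86349506, on the plus strand, within the span of Syn3, a synapsin gene on the minus strand from 86055125 to 86498896. Syn3 had 390 and 300 counts in WT before adhesion, 526 and 327 in WT after adhesion, 36 and 43 in E6 before adhesion, and 50 and 40 in E6 after adhesion. It was thus lower in all 4 E6 libraries than in any WT library, and edgeR gave a log2 FC of -3.27 (SE 0.29) with an FDR of 0.000797. The Syn3 counts amounted to 5.20% to 8.54% of those of Timp3 in the WT libraries and to 24.8% to 30.3% in the E6 libraries. The strand setting of the counting is not given in the sources used here, and without strand, reads of Timp3 and of its antisense partner cannot be told apart.

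Genes within 2 Mb of Timp3, a window chosen after the values had been seen, were compared in the same contrast. Without Timp3 and Syn3, 19 of them were tested, and 18 had a lower level in E6. The fall of 3 of them, Nuak1, Mterfd3 and Ccdc53, passed both limits, with log2 FCs of -0.76, -0.76 and -0.71, and Btbd11 rose by a log2 FC of 1.17. Their median log2 FC was -0.41, against -0.37 over the 540 tested genes of chromosome 10 and -0.01 over all tested genes. Per the methods of the study, Aire, the edited gene, lies on chromosome 10 as well. Whether the edit bears on the levels of this chromosome was not tested. The log2 FC of Timp3 was -5.23, where the lowest among these 19 neighbours was -0.76.

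**Figure D2:**
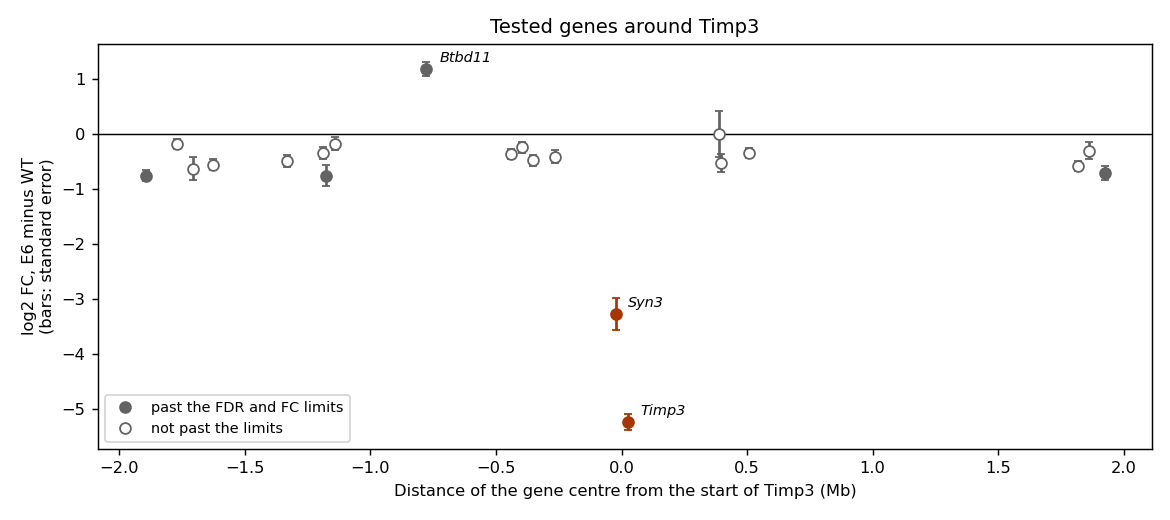
Log2 FC of E6 against WT, averaged over before and after adhesion, for the tested genes within 2 Mb of the start of Timp3, plotted against the distance of the gene centre from that start in Mb. Bars are standard errors, filled points passed the FDR and FC limits, and Timp3 and Syn3 are in red-brown. Timp3 at -5.23 and Syn3 at -3.27 lie below all other genes of the window, whose values run from -0.76 to 1.17.

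The 5 tested genes whose log2 CPM followed that of Timp3 most closely over the 8 libraries were Mark1 (Pearson's r 0.9998), Acsl6 (0.9998), Gpc4 (0.9988), Dusp9 (0.9981) and Pcdh18 (0.9972). These correlations reflect the separation of 4 WT from 4 E6 libraries and are a description. Mark1, a microtubule affinity-regulating kinase, Acsl6, an acyl-CoA synthetase, Gpc4, a glypican, and Dusp9, a dual-specificity phosphatase, had 0 counts in all 4 E6 libraries and 1.46 to 5.56 CPM in the WT libraries. Pcdh18, a protocadherin, differed far less in size, with 12.4 to 13.1 CPM in WT and 8.62 to 9.13 CPM in E6.

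Timp1, a secreted inhibitor of most MMPs, was higher in E6. It had 214 and 199 CPM in WT before adhesion, 126 and 181 CPM in WT after adhesion, 274 and 275 CPM in E6 before adhesion, and 254 and 255 CPM in E6 after adhesion. All E6 libraries lay above all WT libraries, and the lowest WT value was that of replicate 1 after adhesion. The WT mean was 180 ± 38.5 CPM and the E6 mean 264 ± 11.5 CPM (SD, n = 4 each). The log2 FC was 0.55 (SE 0.10) averaged, 0.43 (SE 0.15) before and 0.67 (SE 0.15) after adhesion, where an FC of 1.5 is a log2 FC of 0.585. After adhesion the log2 FC was 0.52 without replicate 1 of WT after adhesion and 0.91 without replicate 2. Its call after adhesion was lost in 7 of the 8 fits that left out 1 library, all but that without replicate 2 of WT after adhesion, with the replicate block and with the GC correction. The gene lies on chromosome X from 20870166 to 20874735 inside Syn1, which is antisense to it and had 3 to 9 counts per library.

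Timp2, which inhibits MMPs and with MMP-14 takes part in the activation of pro-MMP-2, was the most abundant TIMP in CPM. It had 695 and 702 CPM in WT before adhesion, 727 and 737 CPM in WT after adhesion, 880 and 941 CPM in E6 before adhesion, and 945 and 944 CPM in E6 after adhesion. The E6 libraries again lay above all WT libraries. The log2 FC was 0.35 (SE 0.08) averaged, an FC of 1.28 and under the limit of 1.5. It was 0.16 after adhesion when each library was corrected for GC content, against 0.30 without the correction.

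Timp4 had 0 counts in all 8 libraries, which allows at most 0.149 to 0.222 CPM per library. Thus 3 of the 4 TIMP genes were detected. Counts were also scaled by the exon length of the gene to compare levels between genes (RPKM). The RPKM of the TIMPs summed to 379 to 461 in the WT libraries and to 530 to 552 in the E6 libraries. Timp3 made up 8.89% to 13.3% of this sum in WT and 0.203% to 0.234% in E6. In WT before adhesion the order per length was Timp1 with 233 ± 12.0 RPKM, Timp2 with 179 ± 1.31 RPKM and Timp3 with 42.1 ± 1.16 RPKM (SD, n = 2 each). In WT after adhesion Timp1, with 142 and 204 RPKM, and Timp2, with 187 and 189 RPKM, overlapped, so their order was not set there. The 142 RPKM was that of replicate 1, the library that stood apart, and in replicate 2 Timp1 stood first. In E6 Timp1 stood first in every library, with 286 to 310 RPKM, ahead of Timp2 with 226 to 243 RPKM and Timp3 with 1.11 to 1.24 RPKM.

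Of the MMPs, the membrane-type enzymes were the most abundant. Mmp14, which encodes a membrane-anchored collagenase that activates pro-MMP-2, had 198 and 202 CPM in WT before adhesion, 133 and 227 CPM in WT after adhesion, 184 and 182 CPM in E6 before adhesion, and 190 and 172 CPM in E6 after adhesion. The cell types overlapped, and the WT libraries after adhesion held both the lowest and the highest value. The log2 FC of E6 against WT was -0.08 (SE 0.14). Mmp15, which encodes another membrane-type MMP, had 106 and 113 CPM in WT before adhesion, 70.4 and 128 CPM in WT after adhesion, 123 and 126 CPM in E6 before adhesion, and 130 and 142 CPM in E6 after adhesion. Replicate 2 of WT after adhesion lay within the E6 range, and the log2 FC was 0.30 (SE 0.15). After adhesion it was 0.41 with all libraries, 0.12 without replicate 1 and 0.84 without replicate 2 of WT after adhesion.

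Together Mmp14 and Mmp15 made up 96.9% to 99.4% of the summed RPKM of the 6 MMP members. The ratio of the TIMP sum to this MMP sum in RPKM was 6.93 to 10.6 in the WT libraries and 9.25 to 10.2 in the E6 libraries, and these ranges overlapped. The overlap rested on replicate 1 of WT after adhesion, which had the 10.6. Without that library WT had 6.93 to 8.67, below every E6 library. The ratio compares RNA levels and says nothing of the proteins or their activity.

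Mmp2, the gene of a gelatinase, was near 1 CPM. It had 17 and 14 counts in WT before adhesion, 1 and 15 in WT after adhesion, 17 and 34 in E6 before adhesion, and 24 and 26 in E6 after adhesion. In CPM the 4 E6 libraries, 1.17 to 1.80, lay above the 4 WT libraries, 0.0665 to 1.04, but before adhesion the closest libraries were 1.04 CPM in WT and 1.17 CPM in E6. The log2 FC was 1.15 (SE 0.44) averaged and rested in part on the single count in replicate 1 of WT after adhesion, since it was 0.82 without that library and 2.42 without replicate 2 of the same condition.

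**Figure D3:**
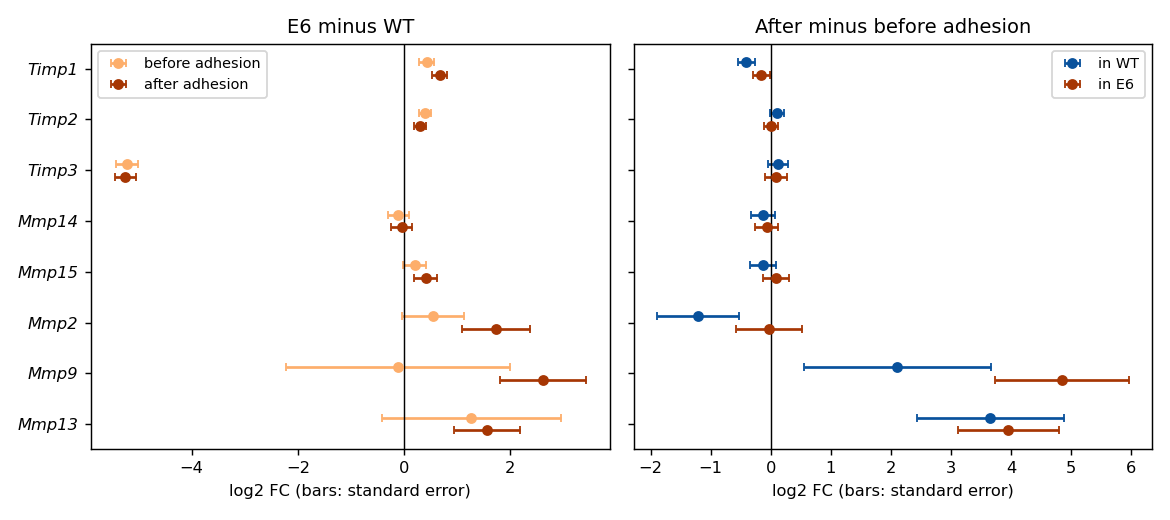
Log2 FC with its standard error (bars) for the 8 tested members, on the left for E6 against WT before and after adhesion and on the right for after against before adhesion in WT and in E6. Timp3 is at -5.22 and -5.25 on the left and near 0 on the right, and Mmp9 and Mmp13 have the largest values on the right, with wide errors.

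Adhesion was compared next, with the libraries after co-culture against those before it. Of the 8 tested members, 0 were DE with WT and E6 averaged, where 1.89% of all tested genes were DE, 1.79% higher and 0.103% lower after adhesion. By DESeq2 1 member, Mmp13, was DE, where 2.89% of all genes were. At an unadjusted p under 0.05 by edgeR there were 3 members, against 9.89% of all genes. In E6 0 members were DE by edgeR against 2.0% of all genes, 2 had an unadjusted p under 0.05 against 6.97%, and 1, again Mmp13, was DE by DESeq2 against 2.54%. In WT 0 members were DE by either tool, against 0.0% of all genes by edgeR and 0.557% by DESeq2, and 2 had an unadjusted p under 0.05 against 7.48%. Since the 2 WT libraries after adhesion differed widely from each other, the 0.0% does not show that WT responded little. For the difference of the adhesion effects 0 members were DE by either tool, against 0.0% of all genes by edgeR and 0.0257% by DESeq2, and 0 had an unadjusted p under 0.05 against 2.54%. The members had been listed with the adhesion results known as well. Mmp9 and Mmp13, and Mmp12 described below, reached 10 counts only in libraries after adhesion, Mmp9 only in those of E6. They entered the test through the condition in which they were high, and their adhesion tests and calls are not independent of that.

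The inhibitors and the membrane-type MMPs moved little with adhesion. The averaged log2 FC was -0.28 (SE 0.10, FDR 0.397) for Timp1, 0.05 (SE 0.08, FDR 0.809) for Timp2 and 0.10 (SE 0.13, FDR 0.770) for Timp3. It was -0.10 (SE 0.14, FDR 0.786) for Mmp14 and -0.02 (SE 0.15, FDR 0.962) for Mmp15. With all 8 libraries none of these passed the FDR limit, although a p that misses the limit does not show that the levels were equal. For Timp1 in WT the log2 FC was -0.41 (FDR 0.620), and it was -0.23 without replicate 1 of WT after adhesion, the library that stood apart, and -0.63 and DE without replicate 2. Averaged, the log2 FC of Timp1 was -0.18 without that replicate 1 and -0.39 without replicate 2 of the same condition.

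Mmp13, the gene of a collagenase, had more counts in all 4 libraries after adhesion than in any before it. It had 0 and 1 counts in WT before adhesion, 12 and 5 in WT after adhesion, 2 and 1 in E6 before adhesion, and 20 and 31 in E6 after adhesion. In CPM these were at most 0.138 before adhesion, below the floor, and 0.248 to 1.90 after it. It was the only tested member without overlap between before and after, against 5.47% of all tested genes. The averaged log2 FC was 3.80 (SE 0.73, FDR 0.0519), just outside the FDR limit, and the FDR was 0.00499 by DESeq2 and 0.0373 with the GC correction. Without replicate 1 or without replicate 2 of WT after adhesion the averaged log2 FC was 3.30 and 4.17. Over all fits that left out 1 library it ran from 3.30 to 5.04. Because Mmp13 passed the filter on counts only through libraries after adhesion, these values are a description. The ratio of after to before in summed counts per depth was 14.5 in WT (95% interval 2.27 to 605) and 17.4 in E6 (5.63 to 87.2). In WT, 12 of the 17 counts after adhesion came from replicate 1, the library that stood apart. The log2 FC of adhesion in WT was 3.65 (SE 1.23, FDR 0.620), and it ran from 2.61 to 6.13 with a library left out.

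Mmp9, the other gelatinase gene, had 1 and 0 counts in WT before adhesion, 0 and 6 in WT after adhesion, 0 and 1 in E6 before adhesion, and 17 and 19 in E6 after adhesion. Both E6 libraries after adhesion stood above all others, at 1.04 and 1.17 CPM. The log2 FC of adhesion was 4.84 (SE 1.11, FDR 0.109) in E6, 2.11 (SE 1.55, FDR 0.636) in WT and 3.48 (SE 0.99, FDR 0.218) averaged. The counting ratio of after to before was 36.9 (6.21 to 1496) in E6 and 5.11 (0.620 to 235) in WT. The adhesion effects differed by a log2 value of 2.74 (SE 2.81, FDR 0.988). The averaged log2 FC was 3.87 without replicate 1 of WT after adhesion. That in E6 was 4.87 without replicate 1 and 4.84 without replicate 2 of WT after adhesion. Because Mmp9 passed the filter on counts only through E6 after adhesion, these values are a description. In WT the sign turned to -2.38 without replicate 2 after adhesion.

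Mmp10, the gene of a stromelysin, had 0 counts in all 4 libraries before adhesion. It had 2 and 3 counts in WT after adhesion and 6 and 7 in E6 after adhesion. Against a floor of 3 counts per library its mean CPM in E6 was at least 2.18-fold higher after adhesion, while in WT both conditions were at or under the floor. For Mmp2 the log2 FC of adhesion was -1.21 (SE 0.68, FDR 0.620) in WT and -0.02 (SE 0.55, FDR 1.000) in E6, and the value in WT was -0.51 without replicate 1 and -3.73 without replicate 2 after adhesion.

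Markers of other cells moved with adhesion too. The 17 thymocyte markers analysed here of a list of 25 summed to 0.529 to 1.26 CPM in the 4 libraries before adhesion, 20.4 to 30.3 CPM in WT after adhesion and 138 to 175 CPM in E6 after adhesion. A list of 14 markers of macrophages and granulocytes, without Csf1r, Cd68 and Cd14, which were counted in every library before adhesion as well, summed to at most 0.345 CPM before adhesion, 3.19 to 4.52 CPM in WT after adhesion and 21.1 to 23.6 CPM in E6 after adhesion. Among them, Lyz2, the gene of lysozyme, had 0 counts in all libraries before adhesion, 12 and 24 in WT after adhesion and 109 and 88 in E6 after adhesion. Between 0 and 3 of these 14 markers had a count in a library before adhesion, 6 to 10 in WT and 11 to 12 in E6 after adhesion. With Csf1r, Cd68 and Cd14 included, the sums in WT were 72.5 and 80.3 CPM before and 49.5 and 80.3 CPM after adhesion. In E6 they were then 68.2 and 58.3 CPM before and 82.3 and 83.9 CPM after adhesion. Csf1r itself had 783 and 779 counts in E6 before adhesion and 678 and 679 after it. The neutrophil genes S100a8, S100a9, Mpo and Elane had at most 3 counts in any library. Fibroblast markers without Thy1, Col1a1 and Col1a2 summed to at most 0.859 CPM. Endothelial markers summed to at most 0.122 CPM before adhesion, 0.266 to 0.397 CPM in WT after adhesion and 1.78 to 2.27 CPM in E6 after adhesion. Among the endothelial markers, Pecam1 had 0 counts in all libraries before adhesion, 2 and 4 in WT after adhesion and 31 and 22 in E6 after adhesion. The part of RNA from other cells in the rises of Mmp9, Mmp10 and Mmp13 was not tested.

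**Figure D4:**
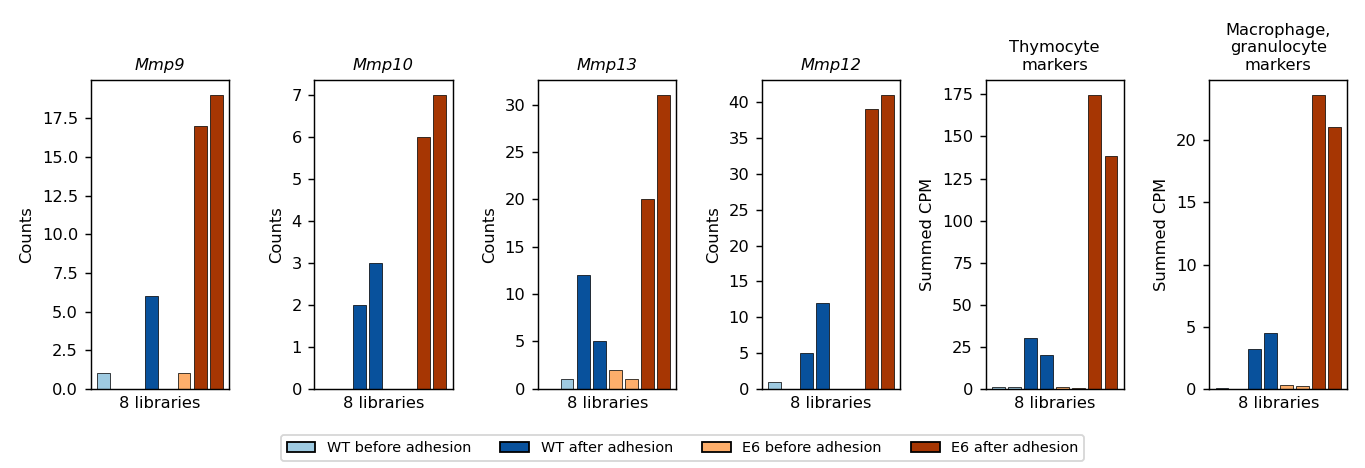
Counts of Mmp9, Mmp10, Mmp13 and Mmp12 and summed CPM of thymocyte markers and of 14 macrophage and granulocyte markers, with 1 bar per library from left to right in the order of the legend and its 2 replicates. In each panel the 2 bars of E6 after adhesion are the highest, for example 17 and 19 counts of Mmp9 and 138 to 175 CPM of thymocyte markers.

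The other genes of the pathway were taken from 6 lists by symbol or role, drawn up with results of these data known. Together 62 of their genes were tested, of which 15 were higher and 1 lower in E6 averaged over before and after adhesion, and 2 were higher and 0 lower after adhesion averaged over the cell types. These counts are read beside the 11.3% and 1.89% of all tested genes given above.

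Of the 17 other MMP genes, 12 had a count and 5 were tested. Mmp24, which encodes a membrane-type MMP, was higher in E6, with 5.96 ± 0.995 CPM in WT and 11.7 ± 1.72 CPM in E6 (SD, n = 4 each), with its log2 FC at 0.94 (SE 0.13, FDR 0.00377). The median log2 FC of the 5 was -0.18, and the genes went both ways. Mmp12, the gene of macrophage elastase, was called after adhesion at a log2 FC of 5.94 (SE 0.67, FDR 0.0118), in a test that it entered only through libraries after adhesion. Its level fell outside the limit set for named genes, and it was chosen after its values had been seen. It had 1 and 0 counts in WT before adhesion, 5 and 12 in WT after adhesion, 0 and 0 in E6 before adhesion, and 39 and 41 in E6 after adhesion. Its call was lost without either replicate of WT before adhesion or of E6 after adhesion (FDR 0.0555 to 0.0876).

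Of the 33 ADAM genes, several of which encode membrane-bound proteinases that shed surface proteins, 17 had a count and 8 were tested. Adam8 was higher in E6, at 73.8 ± 12.4 CPM in WT and 129 ± 18.8 CPM in E6 (SD, n = 4 each), with a log2 FC of 0.78 (SE 0.13, FDR 0.00778, and 0.0522 without replicate 1 of WT before adhesion). Adam10 and Adam17, the genes of 2 major sheddases, had log2 FCs of -0.09 (FDR 0.727) and -0.25 (FDR 0.0755). They were named after their values had been seen. Of the 19 ADAMTS genes, 6 were tested. Adamts15 and Adamts1, which encode proteinases that cleave proteoglycans, were higher in E6, with log2 FCs of 1.06 (SE 0.11, FDR 0.00151) and 0.63 (SE 0.11, FDR 0.00790). Adamts7 was lower, at a log2 FC of -2.60 (SE 0.36, FDR 0.00377), and its level of 1.32 ± 0.294 CPM in WT and 0.223 ± 0.112 CPM in E6 (SD, n = 4 each) lay near the floor. It too was named after its values had been seen. The call of Adamts1 was lost without replicate 2 of WT before adhesion or replicate 1 of E6 after adhesion (FDR 0.0534 and 0.0506) and without replicate 2 of WT after adhesion (log2 FC 0.57, under the FC limit).

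Of the 13 tested activators, inhibitors and binding partners of MMPs, 4 were higher and 0 lower in E6, with a median log2 FC of 0.31. Over all tested genes 5.22% were higher and 6.13% lower, with a median of -0.01. Lcn2, whose product lipocalin-2 binds MMP-9, had 2.53 ± 1.09 CPM in WT and 12.3 ± 3.86 CPM in E6 (SD, n = 4 each), with its log2 FC at 2.29 (SE 0.18, FDR 0.000463). Cd44, a hyaluronan receptor that can hold MMP-9 at the cell surface, rose by a log2 FC of 0.75 (SE 0.14, FDR 0.0111). Plaur, the gene of the urokinase receptor, was called as well, at 0.64 (FDR 0.0256), and was named after its values had been seen. The calls of Cd44 and Plaur were less stable, since 5 and 7 of the 8 fits without 1 library lost them. These were, for Cd44, the fits without either WT library before adhesion, without replicate 2 of E6 before adhesion or without either E6 library after adhesion (FDR 0.0519 to 0.0652). For Plaur they were all but the fit without replicate 2 of WT after adhesion, with a log2 FC of 0.49 without replicate 1 of that condition and FDRs of 0.0879 to 0.111 in the others, and the call was also lost with the GC correction (0.58).

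Of the 18 tested genes of matrix proteins that MMPs can cleave, 6 were higher and 0 lower in E6, with a median log2 FC of 0.48. Of all tested genes 5.22% were higher and 6.13% lower, with a median of -0.01. Since the list was drawn up with results known, these counts are a description. Tnc, the gene of tenascin-C, had 98.2 ± 13.9 CPM in WT and 420 ± 24.7 CPM in E6 (SD, n = 4 each), with its log2 FC at 2.08 (SE 0.11, FDR 0.000175). Col7a1, which encodes the collagen of anchoring fibrils, had 395 ± 112 CPM in WT and 779 ± 44.9 CPM in E6 (SD, n = 4 each), with its log2 FC at 0.99 (SE 0.14, FDR 0.00376). Lama3, the gene of a laminin chain of epithelial basement membranes, had 407 ± 33.0 CPM in WT and 784 ± 61.9 CPM in E6 (SD, n = 4 each), with its log2 FC at 0.92 (SE 0.09, FDR 0.00107). The calls also included Fn1 (0.75) and Hspg2 (0.59), the genes of fibronectin and perlecan, both named after their values had been seen. The call of Hspg2, just past the FC limit, was lost with the culture time as a covariate (0.56), with the GC correction (0.45) and without replicate 1 of WT before adhesion, WT after adhesion or E6 after adhesion (0.55 to 0.56).

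**Figure D5:**
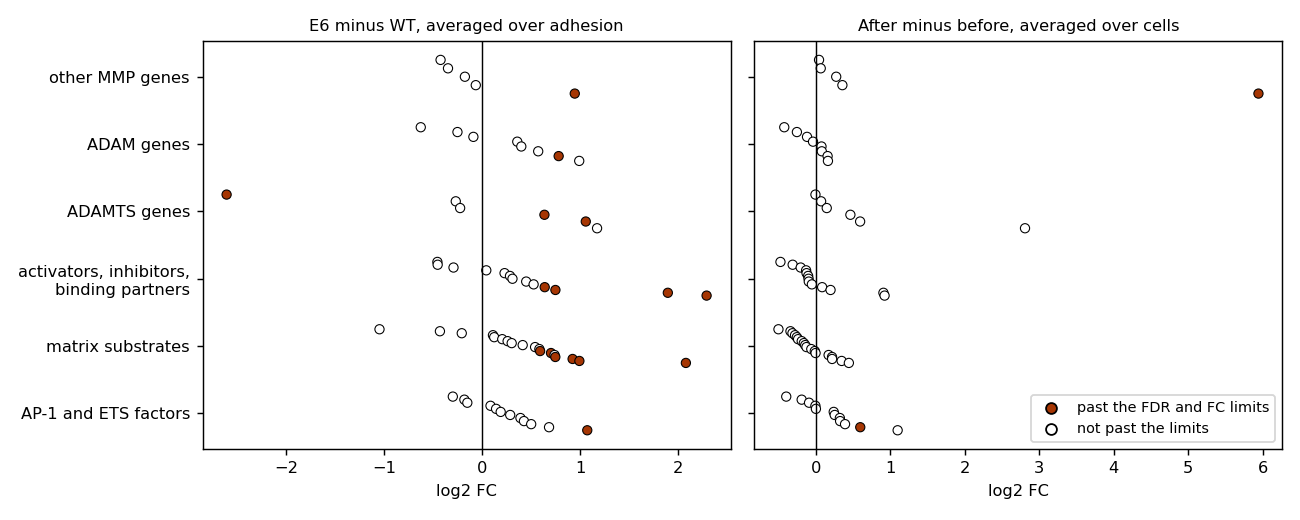
Log2 FC of the tested genes of the 6 pathway lists, on the left for E6 against WT averaged over before and after adhesion and on the right for after against before adhesion averaged over the cell types, with 1 point per gene. Filled points passed the FDR and FC limits, 15 higher and 1 lower on the left and 2 higher on the right. The filled points of the matrix substrates all lie to the right of 0 in the left panel.

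Of the 12 tested AP-1 and ETS factors, which bind many MMP promoters, Fosb was higher in E6, at 7.64 ± 1.23 CPM in WT and 16.6 ± 5.30 CPM in E6 (SD, n = 4 each), with a log2 FC of 1.07 (SE 0.17, FDR 0.00638). Jun, the gene of an AP-1 subunit, rose with adhesion averaged over the cell types by a log2 FC of 0.59 (SE 0.11, FDR 0.0415), with a log2 FC of 1.37 (FDR 0.216) in WT and -0.19 (FDR 1.000) in E6. The difference of these effects was -1.56 (SE 0.21, FDR 0.988) and did not pass the FDR limit. It had 48.1 and 53.5 CPM in WT before adhesion, 115 and 144 CPM in WT after adhesion, 90.9 and 105 CPM in E6 before adhesion, and 80.5 and 98.3 CPM in E6 after adhesion. Both WT libraries after adhesion lay above all others, and the E6 libraries before and after adhesion overlapped. The call of Jun was kept only without replicate 1 of WT after adhesion among the 8 fits that left out 1 library, with FDRs of 0.116 to 0.230 in 6 of the others and a log2 FC of 0.54 without replicate 2 of WT after adhesion, and it was lost without the filter on low counts (FDR 0.0579) and with the culture time as a covariate (FDR 0.0694).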

How the data were processed

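Each RNA-Seq library was a table of gene symbols and counts. Per the labels and the methods of the study, the authors aligned paired-end reads to mm10 and deposited the HTSeq count of reads per gene, without normalization; the submitters' processing notes name STAR 2.5.0a, HTSeq, DESeq2 and GRCm38. The labels name a Stranded mRNA kit and the methods a Total RNA kit. The strand setting and annotation of the counting are not given in the sources used here. Libraries were grouped by title and source name. In 1 library, 18 symbols appeared as dates, and the shared gene order of the tables gave them back.

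The members and lists were chosen with earlier results of these data known. The test used was edgeR 4.0.16 in R 4.3.3, after filterByExpr and TMM scaling, by quasi-likelihood with a mean for each of the 4 conditions and 4 residual degrees of freedom. All tests were two-sided, and p-values were adjusted over 11672 genes by the Benjamini-Hochberg method. Standard errors were the size of the log2 FC over the square root of F. CPM used the total on genes, and RPKM the exon length in GENCODE vM21. Log2 CPM for correlations had a prior count of 2. Counting ratios had exact 95% conditional binomial intervals. From each pathway list, up to 3 DE genes per direction and contrast whose log2 CPM averaged 0 or more were named, and other genes are marked as named after their values had been seen. Results of some called genes of these lists are not reported here. The procedure was tested on counts simulated with the same spread in every condition and with changes planted only in well-counted genes. That test does not cover members of few counts or the unequal pair of WT after adhesion. Alternatives were RLE size factors, DESeq2 1.42.0, no filter, a replicate block, culture time as a covariate, a GC correction by lowess with limma 3.58.1, only the 4 libraries compared, and each library left out in turn. Python 3.11.15 with pandas 2.3.3, scipy 1.17.1 and matplotlib 3.10.9 made the summaries and figures.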

Additional observations from a re-analysis of the deposited data

How the results depend on the processing

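Timp3 was DE and lower in E6 under every alternative before adhesion and with before and after adhesion averaged, with averaged log2 FCs of -5.34 to -5.08. In E6 against WT averaged the number of DE members (main 1) was 1 in every fit that kept all 8 libraries. Those fits called 8.11% to 12.1% of all genes. Without replicate 1 or without replicate 2 of WT after adhesion the number changed. With 1 library left out at a time, the averaged log2 FC was 0.82 to 2.42 for Mmp2 and 0.47 to 0.67 for Timp1. After adhesion the number (main 2, Timp1 and Timp3) was 1 with the replicate block and 1 with the GC correction, both without Timp1, and 0 from only the 4 libraries compared, where 0 of 11521 genes were DE. It was 1 to 5 with a library left out, in fits that called 0.227% to 37.7% of all genes, the 5 at 37.7%, where Timp1 stayed DE only without replicate 2 of WT after adhesion, and without replicate 1 of that condition Mmp9, Mmp13 and Timp3 were DE. Mmp9 reached 10 counts only in E6 after adhesion, and so did Mmp13 once replicate 1 of WT after adhesion was left out. They entered these fits through the cell type in which they were high, and their calls in E6 against WT after adhesion are not independent of that. For adhesion averaged (main 0), among the fits that kept all 8 libraries, the number of DE members was 1 with DESeq2 and 1 with the GC correction, both Mmp13. Those 2 fits called 2.89% and 2.11% of all genes. This number also changed without replicate 1 or without replicate 2 of WT after adhesion. In WT (main 0) it was 0 to 3 and for the difference (main 0) 0 to 2, with DE members only without replicate 2 of WT after adhesion, a fit that called 29.8% and 25.6% of all genes against 0.0% each with all libraries. In E6 (main 0) it was 1 with DESeq2, 1 with the GC correction and 2 from only the 4 libraries compared (Mmp9 and Mmp13). These fits called 2.54%, 2.38% and 4.71% of all genes. In E6 the number also changed without replicate 1 or without replicate 2 of WT after adhesion. Of the 62 pathway genes, 12 to 26 were DE in E6 against WT with a library left out (main 16), and for adhesion (main 2) 4 with DESeq2, 1 without the filter on low counts and 0 to 6 with a library left out. For adhesion, the fit with DESeq2 called 2.89% of all genes and that without the filter 1.04%, against 1.89% in the main fit. The highest number of either range came without replicate 2 of WT after adhesion, the fit that also called the largest share of all genes. The lowest numbers came from fits that called a smaller share of all genes than the main fit. The cause of these changes was not tested.

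Some adhesion effects turned sign, most of them near 0. For Timp3 the difference (-0.03) was 0.0086 without the filter and 0.0441 with the GC correction. For Mmp2 in E6 (-0.02) it was 0.0028 with DESeq2, 0.0204 with the replicate block and 0.0086 with the GC correction. The Mmp13 difference (0.30) was -0.0233 with culture time as a covariate. With the GC correction the Mmp14 difference (0.07) was -0.0076 and Mmp15 was 0.0779 averaged and 0.0196 in WT. With a library left out, ranges crossing 0 were -0.0539 to 0.0561 for Timp2 in E6, -0.0307 to 0.218 averaged, -0.173 to 0.339 in WT and -0.243 to 0.285 in the difference for Timp3, -0.288 to 0.338 for Mmp2 in E6, -2.38 to 4.52 for Mmp9 in WT, -2.18 to 1.38 for the Mmp13 difference, -0.281 to 0.0515 averaged, -0.503 to 0.145 in WT, -0.145 to 0.0012 in E6 and -0.188 to 0.445 in the difference for Mmp14, and -0.231 to 0.146 averaged, -0.553 to 0.187 in WT and -0.0813 to 0.642 in the difference for Mmp15.

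The replicate numbers name the libraries and do not pair them. Libraries with the same number deviated from their group means with correlations of -0.079 to 0.222 across 9768 genes. Members with fewer than 20 counts in a library, Mmp2, Mmp9, Mmp10 and Mmp13, are limited by depth, and their standard errors may be too small. The 2 libraries per condition and a single clone limit all comparisons.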
